A study of Homo sapiens with 36 samples.

Results

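The late response of UPN-1 cells to the KDM5 inhibitor GS716054 was described from 6 RNA sequencing libraries, 3 of treated cells and 3 of vehicle (DMSO) cells, all collected 72 h after treatment began. They were chosen by their labelled line, time and treatment from the 36 libraries of the series. UPN-1 is an established human mantle cell lymphoma line, so the replicates show the spread between cultures of 1 line and not between tumours. No gene edit or second agent is named for any group, and the concentration of GS716054 is not given in the sources used here. The same treatments of UPN-1 at 24 h, and of the mantle cell lymphoma lines JEKO and MINO at 72 h, served for comparison, each with 3 GS716054 and 3 DMSO libraries labelled as biological replicates. The comparison asked which genes GS716054 had changed by the later time.

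KDM5 enzymes remove methyl groups from lysine 4 of histone H3, a mark found at the promoters of active genes. The family has 4 members in humans, KDM5A to KDM5D, and blocking their catalytic site is known to leave more of this mark in place. Mantle cell lymphoma is a B-cell cancer that typically carries a translocation bringing CCND1, the gene of cyclin D1, under an immunoglobulin enhancer. Its cells depend on B-cell receptor signalling and commonly express the transcription factor SOX11.

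Gene reads ranged from 10297650 to 13339593 per library at 72 h. A count of 0 in these libraries allows up to 0.225 to 0.291 counts per 1e+06 gene reads. Levels are given below as CPM, the counts of a gene per 1e+06 of a library total scaled by edgeR's TMM method. That total differs from the gene reads. Each treated library had more genes with a read (21418 to 22017) than its DMSO partner (20390 to 21459). All 7 B-cell markers were detected, with a summed level of 1996 to 2234 CPM in DMSO and 2236 to 2541 CPM in treated libraries. The 6 T-cell markers summed to 22.6 to 49.7 CPM in DMSO and 20.2 to 40.7 CPM in treated libraries, nearly all of it TRBC2, while CD2 was at 0 throughout. Myeloid markers stayed at or under 1.8 CPM in sum, with FCGR3A, S100A8 and S100A9 at 0.

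On the first principal component (50.8% of the variance of the 12 UPN-1 libraries), the DMSO libraries at 72 h lay at 21.9, 57.2 and -10.7 in the order of replicates 1, 2 and 3. Their treated partners lay at 44.2, 61.8 and 18.8, so the treated library was the higher of the pair each time. Replicate 3 of the DMSO group lay nearest to the 24 h libraries, which spanned -36.9 to -23. The 3 DMSO libraries thus lay further apart on it than any treated library lay from its partner, and counts without DMSO replicate 3 or without pair 3 are given below.

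**Figure D1:**
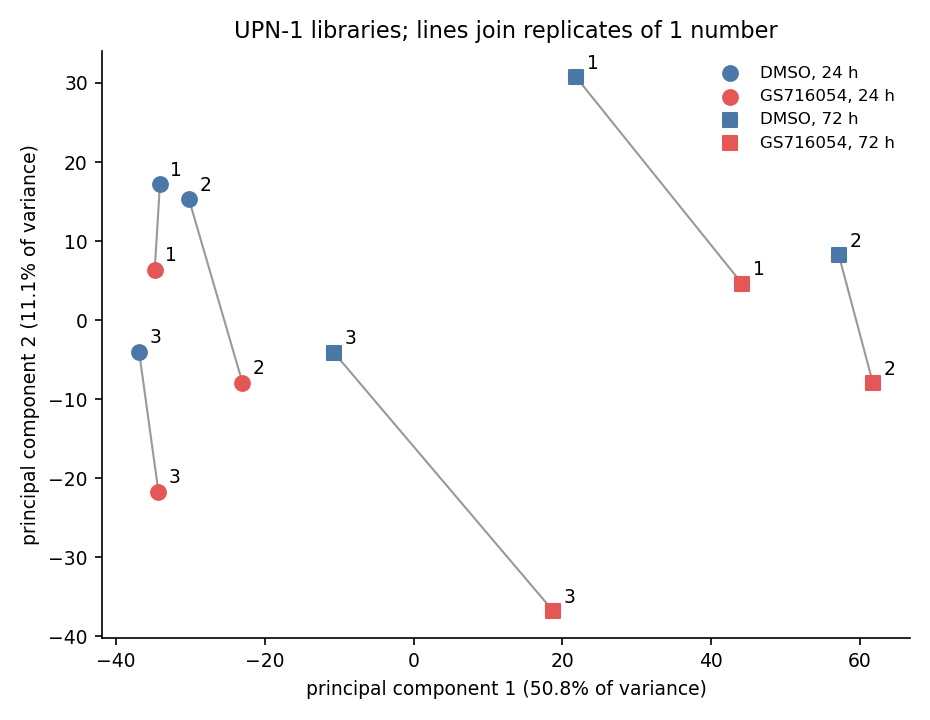
First against second principal component of log2 CPM for the 12 UPN-1 libraries, with circles for 24 h, squares for 72 h, blue for DMSO, red for GS716054 and grey lines joining the libraries of 1 replicate number at 1 time. At 72 h each treated library lies to the right of and below its DMSO partner, and DMSO replicate 3 (-10.7 on the first component) lies nearest to the 24 h libraries.

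More genes were called higher than lower after GS716054, except in a fit without pair 3 that is given below. With edgeR's quasi-likelihood test and the replicate number as a block shared by both times, 223 of 15248 genes tested (1.46%) passed a Benjamini-Hochberg adjusted p of 0.05 and are said to be called here. Of these, 175 (1.15% of the genes tested) were higher and 48 (0.315%) were lower in treated cells. The median log2 fold change was 1.07 over the raised and -0.64 over the lowered genes, and 99 raised against 7 lowered genes passed 2-fold. All 175 and all 48 had the same sign in each of the 3 pairs, which a test blocked on the replicate number favours by design. Over all 15248 genes tested, 2997 were higher and 2818 were lower in each of the 3 pairs. The 3 treated libraries did not overlap the 3 DMSO libraries for 158 raised and 40 lowered genes, against 8.88% of the genes tested.

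The count depended on how the replicate number was entered. With a block for each number within each time, 1139 genes (7.47%) were called, 638 higher (4.18%) and 501 lower (3.29%), and all 223 genes were among them. Their median log2 fold changes were 0.69 and -0.34, so the added genes moved by less. Without 1 of the 6 libraries, 108, 367 and 115 genes were called with the shared block when DMSO replicate 1, 2 or 3 was left out, and 107, 133 and 96 when GS716054 replicate 1, 2 or 3 was. With the block within each time, 402 genes were called without pair 1 (252 higher, 150 lower) and 1636 without pair 2 (843 higher, 793 lower). Without pair 3 the direction turned, with 400 of 853 called genes higher and 453 lower.

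Raised genes had lower levels in DMSO at 72 h than lowered genes. These DMSO libraries are also the base of the fold change, and a gene low in them can hardly be called lower. The contrast thus follows in part from the selection. Their median DMSO level was 6.85 CPM, against 54.9 CPM for lowered genes and 19.6 CPM for all genes tested, and 68 of the 175 (38.9%, against 27.2% of genes tested) lay under 5 CPM. Long non-coding RNAs made up 8.57% of raised and 8.33% of lowered genes, against 15.6% of the genes tested.

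CKB, the brain-type creatine kinase that buffers ATP through phosphocreatine, had the smallest adjusted p of the genes named here. The gene lies at chr14:103519667-103522833 on the minus strand. Its level was 55.4, 58.7 and 50.7 CPM in DMSO replicates 1 to 3 and 185, 156 and 180 CPM in the treated replicates. The groups were far apart, with a log2 fold change of 1.67 ± 0.12 (SE, as for each log2 fold change here) and an adjusted p of 7.86e-07 in edgeR. CRIP2, a LIM-domain protein gene (chr14:105472962-105480162, plus strand), stood at 2.66, 6.31 and 4.39 CPM in DMSO and 21.9, 28.1 and 20.9 CPM in treated libraries. Its log2 fold change of 2.48 ± 0.28 had an adjusted p of 0.00011. TMEM121, a transmembrane protein gene close by on the same chromosome (chr14:105526583-105530198, plus strand), went from 3.21, 5.5 and 2.28 CPM to 14.6, 13.6 and 10.8 CPM. These 3 genes stayed past the threshold under each alternative tried.

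MXRA8, an immunoglobulin-domain surface protein gene on chr1:1352689-1361777 (minus strand), was at 3.06, 12.5 and 3.82 CPM in DMSO libraries and at 28.5, 36.6 and 23.5 CPM in treated ones. DMSO replicate 2 was the highest of its group, still below each treated library, and the log2 fold change was 2.34 ± 0.25 (edgeR adjusted p = 5.24e-05). PRPH, which encodes the neuronal intermediate filament peripherin, had the largest change of the named genes. It rose from 2.82, 4.69 and 5.94 CPM to 18.5, 30.3 and 42.5 CPM, a log2 fold change of 2.77 ± 0.23 (adjusted p = 4.86e-06). The antisense transcript TROAP-AS1 rose from 6.42, 7.57 and 7.4 CPM to 18.9, 28.3 and 36.7 CPM (1.94 ± 0.18, adjusted p = 1.51e-05). Exons of TROAP-AS1 cover 71.5% of the PRPH exons on the opposite strand (chr12:49295147-49298686), and without a stated strand setting their reads cannot be told apart, so both values are uncertain.

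JAG2 and 4 further genes completed the 10 with the largest increase. JAG2 encodes a Notch ligand (log2 fold change 1.92), and the others were ARHGEF17 (2.11), CEND1 (1.97), known for promoting cell cycle exit in neurons, and the long non-coding RNAs LINC02908 (2.06) and UICLM (1.96). JAG2 was at 2.04, 3.88 and 1.14 CPM in DMSO and 8.8, 8.9 and 7.63 CPM in treated libraries. The other 4 had treated means of 4.15 to 5.88 CPM and DMSO means of 1.01 to 1.68 CPM. Their groups did not overlap, yet these are levels at which 1 library matters. Without 1 library the calls of ARHGEF17, LINC02908, UICLM and JAG2 were lost for 4, 3, 5 and 2 of the 6 libraries, with adjusted p up to 0.117, 0.1, 0.217 and 0.0597. Those libraries were DMSO 1 and GS716054 3 for all 4 genes, DMSO 3 and GS716054 2 for ARHGEF17 and UICLM, and GS716054 1 for LINC02908 and UICLM.

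NIBAN3, a gene typical of B lymphocytes (chr19:17523301-17553839, plus strand), had the smallest adjusted p of the lowered genes named here. Its level was 131, 125 and 91.2 CPM in DMSO and 61.3, 40.4 and 34.1 CPM in treated libraries, with no overlap. The log2 fold change was -1.37 ± 0.13 (edgeR adjusted p = 1.81e-05). ATF7IP encodes the partner protein of SETDB1, which places the repressive mark on lysine 9 of histone H3. ATF7IP (chr12:14365676-14502931, plus strand) fell from 98.9, 141 and 114 CPM to 50.6, 61 and 68.2 CPM, a log2 fold change of -0.98 ± 0.12 (adjusted p = 0.000312). ZNF274, a zinc finger protein that recruits SETDB1 to its target genes, fell from 31.1, 36.2 and 31.7 CPM to 18.5, 21.9 and 17.9 CPM (-0.77 ± 0.12, adjusted p = 0.00209). For these 3 genes no treated library reached the lowest DMSO library, and the call held under each alternative.

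The lowered genes with the largest change were otherwise low or moderate in level. PYHIN1, an interferon-inducible gene of the family that includes IFI16, was at 4.07, 3.6 and 2.36 CPM in DMSO and 1.96, 1.1 and 0.467 CPM in treated libraries (log2 fold change -1.57). The adhesion molecule gene JAML (-1.10), the glycosyltransferase gene B3GNT7 (-1.22), the synaptic scaffold gene RIMBP2 (-1.16), the potassium channel gene KCNA3 (-0.99), the membrane glycoprotein gene GPM6A (-0.99) and the zinc finger gene ZNF649 (-0.94) completed the 10 with NIBAN3, ATF7IP and IGLL5. GPM6A kept its call without any 1 library. The calls of PYHIN1, JAML, B3GNT7, RIMBP2, KCNA3 and ZNF649 were lost without 4, 6, 5, 4, 5 and 4 of the 6 libraries, with edgeR adjusted p up to 0.18, 0.19, 0.239, 0.11, 0.135 and 0.148. For PYHIN1 and RIMBP2 these were replicates 1 and 3 of DMSO and 2 and 3 of GS716054, for ZNF649 replicates 2 and 3 of DMSO and 1 and 3 of GS716054. For B3GNT7 they were all but DMSO 2 and for KCNA3 all but DMSO 1.

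**Figure D2:**
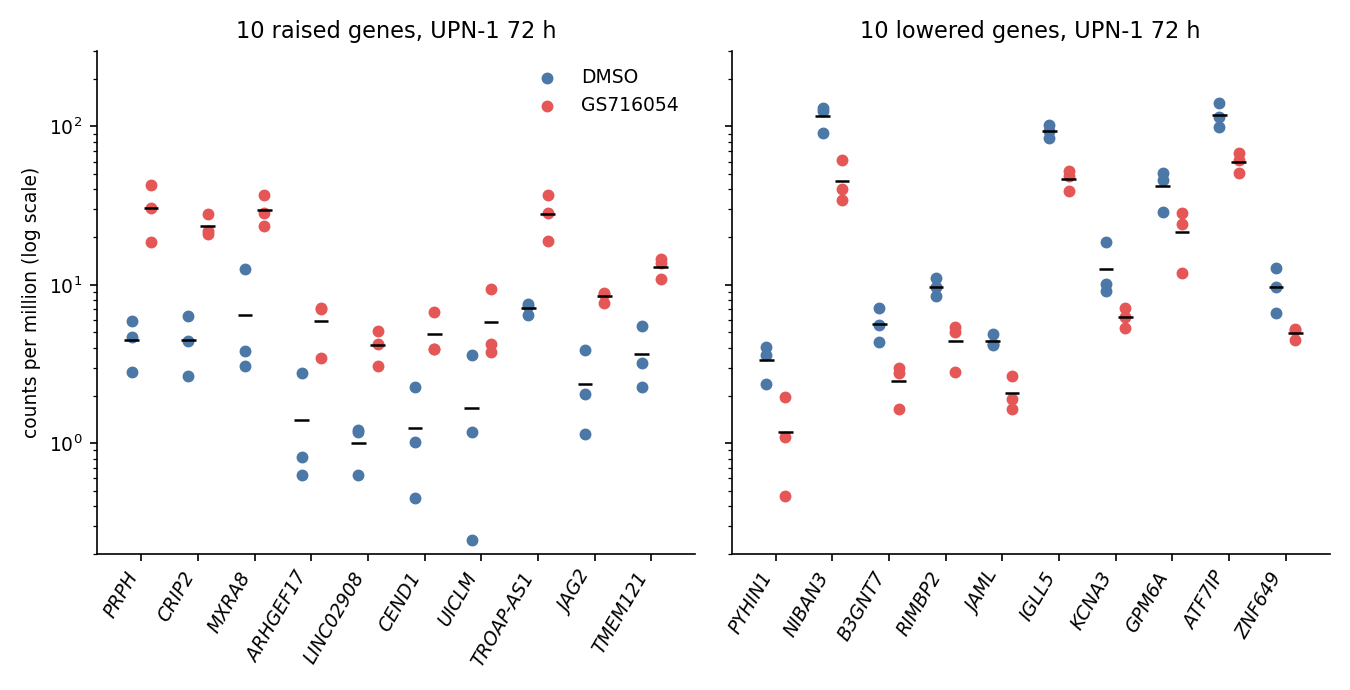
CPM on a log scale in the 3 DMSO (blue) and 3 GS716054 (red) UPN-1 libraries at 72 h for the 10 genes with the largest increase (left) and the 10 with the largest decrease (right), with black bars at the group means. No red point overlaps the blue points of its gene, and the raised genes lie lower in DMSO than most lowered genes (CRIP2 near 4.46 CPM, NIBAN3 near 116 CPM).

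Because KDM5 acts at promoters, the sequence before the start was read for genes whose call held under each alternative. The 250 bases before the RefSeq start (GRCh38.p14) of 2 raised and 2 lowered genes are given 5′ to 3′ in lower case. Capitals mark CCGCCC on either strand, the core of the GC box, which reads GGGCGG on the other strand. The windows are chr14:103522831-103523080 (minus strand) for CKB, chr14:105472695-105472944 (plus) for CRIP2, chr19:17523051-17523300 (plus) for NIBAN3 and chr12:14365432-14365681 (plus) for ATF7IP.
CKB: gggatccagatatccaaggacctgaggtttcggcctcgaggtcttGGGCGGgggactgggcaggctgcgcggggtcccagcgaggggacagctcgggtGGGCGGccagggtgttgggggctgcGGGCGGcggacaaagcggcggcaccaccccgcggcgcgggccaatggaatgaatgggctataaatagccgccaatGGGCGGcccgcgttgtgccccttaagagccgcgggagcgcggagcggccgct
CRIP2: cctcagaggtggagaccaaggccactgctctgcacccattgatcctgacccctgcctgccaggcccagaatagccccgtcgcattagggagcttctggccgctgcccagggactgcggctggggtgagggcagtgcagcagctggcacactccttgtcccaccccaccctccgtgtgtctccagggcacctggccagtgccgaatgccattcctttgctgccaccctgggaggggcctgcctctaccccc
NIBAN3: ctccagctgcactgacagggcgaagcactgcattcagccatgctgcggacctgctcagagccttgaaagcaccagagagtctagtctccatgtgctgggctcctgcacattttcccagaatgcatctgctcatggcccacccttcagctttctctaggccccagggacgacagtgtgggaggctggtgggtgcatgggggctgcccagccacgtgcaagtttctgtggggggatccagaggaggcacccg
ATF7IP: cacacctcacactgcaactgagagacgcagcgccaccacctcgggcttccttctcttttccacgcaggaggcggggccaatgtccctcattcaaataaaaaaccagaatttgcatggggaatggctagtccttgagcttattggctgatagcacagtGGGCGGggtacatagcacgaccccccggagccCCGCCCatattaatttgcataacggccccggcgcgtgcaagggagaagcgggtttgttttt
The CKB window held 4 matches and 27 CpG dinucleotides, the ATF7IP window 2 matches and 14 CpG, and the CRIP2 and NIBAN3 windows none and 6 and 5 CpG. The raised pair and the lowered pair printed here each held 1 window with the motif and 1 without, a split that depends on which windows were printed. Other windows were read in the same way. Those of the raised genes MXRA8, PRPH and CDKN1A held 1, 0 and 4 matches, and that of the lowered gene ZNF274 held 5. The call of CDKN1A, unlike the others, was lost with no replicate block.

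Over all genes tested, the same window was taken before the outermost GENCODE start, which gave a sequence for 99.3% of them. The median GC content was 66.4% in the 175 raised genes, 55.2% in the 48 lowered genes and 60.8% in all genes tested. CCGCCC on either strand was present in 61.7% of raised, 38.3% of lowered and 52.8% of all windows. Among the genes called with the block within each time the spread was narrower, with 58.6% of raised and 54.2% of lowered windows holding the motif. The median GC content there was 64.8% and 61.2%. These shares are a description, and the lowered group has few genes.

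None of the KDM5 mRNAs was called with the shared block. KDM5A had a mean of 92.5 ± 13.7 CPM (SD, n = 3, as for each mean ± SD of CPM here) with DMSO and 93.6 ± 13.9 CPM with GS716054, and KDM5C had 142 ± 13.9 and 140 ± 13.9 CPM. KDM5B was at 47.7, 107 and 32.9 CPM in DMSO and 65, 121 and 51.2 CPM in treated replicates, higher in 3 of 3 pairs. Its log2 fold change of 0.37 missed the threshold with the shared block (edgeR adjusted p = 0.614) and passed it with the block within each time (adjusted p = 0.00457). With that block it was 0.0809 without pair 1, 0.000413 without pair 2 and 0.0505 without pair 3. KDM5D had no read in the 6 libraries. None of this checks the labels, since an enzyme inhibitor need not change its target's mRNA.

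Of the fixed lymphoma genes, CCND1 fell and CDKN1A rose. CCND1 stood at 2737, 2023 and 2040 CPM in DMSO and 1925, 1445 and 1425 CPM in treated libraries. The groups did not overlap, and the log2 fold change was -0.50 ± 0.12 (edgeR adjusted p = 0.0416). CCND1 lost its call without 5 of the 6 libraries (all but DMSO replicate 2), with adjusted p up to 0.33, whereas with the block within each time it had an adjusted p of 2.25e-05. CDKN1A, which encodes the cell cycle inhibitor p21, went from 29.2, 15.7 and 11.2 CPM to 46.4, 27.7 and 25.9 CPM. The groups overlapped, every pair rose, and the log2 fold change was 0.87 ± 0.15 (adjusted p = 0.0037). Without the replicate block that p was 0.452. SOX11 (94 ± 11.5 against 111 ± 12.7 CPM), MYC (71.8 ± 2.05 against 87 ± 7.76 CPM), BCL2 (4.75 ± 3.28 against 2.62 ± 0.537 CPM), MCL1 (309 ± 17.7 against 335 ± 23.3 CPM) and BTK (139 ± 12.2 against 124 ± 12 CPM) were not called with the shared block. MYC had an adjusted p of 0.023 with the block within each time, but of 0.055, 0.0552 and 0.102 there without pairs 1, 2 and 3 and of 0.0607 in a blocked fit of the 6 libraries.

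Lists of genes by function were read next, with the calls of 32 lists. Members outside the naming rule are examples chosen after their values were seen. Of the 223 called genes, 27 were in a list and 196 in none. Over all genes tested, 1757 of 15248 (11.5%) had an unadjusted p under 0.05, the share against which such counts are read below. Counts of calls are read against 1.15% higher and 0.315% lower with the shared block. With the block within each time, the shares over all genes tested are 4.18% higher and 3.29% lower.

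Genes with a neuronal-type function held the most calls of any list with the shared block. Of 26 tested, 9 were called higher and none lower, with a median log2 fold change of 0.64, against 0 over all genes tested. With the block within each time 11 were higher, fewer than the calls of the mitosis list (18) and the ATF4 list (12). This list holds genes already known to rise in these data, so its count is not independent evidence. Beside CKB, PRPH and CRIP2, STMN3 (a regulator of microtubules) went from 33.1, 40.8 and 50.7 CPM to 59.7, 68.7 and 101 CPM. INA, another neuronal intermediate filament, changed by 1.75, and the axonal motor KIF1A by 1.39 on the log2 scale. CPLX1 and SYT11, which act in vesicle release, changed by 1.13 and 0.86, and the polarity gene CRB2 by 1.00. Leaving out 1 library gave 7 to 10 calls, no replicate block gave 4, and the fit of all 36 libraries gave 6 of 33 tested. None was lower in these fits.

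Of 13 immunoglobulin genes tested, 3 were called lower and none higher (1 lower with no replicate block). In all, 11 had a log2 fold change below 0 and 2 above, the median log2 fold change was -0.41, and 10 were lower with the block within each time (6, 9 and 8 without pairs 1, 2 and 3). IGLL5, a light-chain-like gene of the lambda locus (chr22:22887780-22896111), fell from 94.1, 102 and 83.8 CPM to 52.4, 48.7 and 39.1 CPM. No libraries overlapped, and the log2 fold change was -1.002 ± 0.10 (edgeR adjusted p = 2.22e-05). IGHG3 went from 106, 131 and 69.8 CPM to 61.7, 71.2 and 47.9 CPM, where the groups overlapped but each pair fell (-0.745 ± 0.127, adjusted p = 0.0038). IGLC3 changed by -0.59 (adjusted p = 0.013) and lost its call without DMSO replicate 1, GS716054 replicate 2 or GS716054 replicate 3 (adjusted p up to 0.1). Heavy chain constant genes and the lambda genes resemble each other, so reads may be split between them. IGHM, the most abundant, stood at 5193, 3962 and 3114 CPM in DMSO and 3878, 3103 and 2363 CPM in treated libraries (-0.39, adjusted p = 0.207). It was called with the block within each time (adjusted p = 0.000253).

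B-cell identity genes split. MS4A1, which encodes the antibody target CD20, rose from 323, 268 and 426 CPM to 469, 501 and 556 CPM without overlap (0.60 ± 0.12, edgeR adjusted p = 0.0112). IRF4, a factor of activated B cells and plasma cells, fell from 278, 250 and 225 CPM to 214, 172 and 150 CPM (-0.495 ± 0.101, adjusted p = 0.0152). NFATC2, a transcription factor switched on by calcium after receptor signalling, fell from 33.6, 29.2 and 29.7 CPM to 23.4, 21 and 17.2 CPM (adjusted p = 0.013). MS4A1 and IRF4 lost the call without DMSO replicate 1, GS716054 replicate 2 or GS716054 replicate 3, and NFATC2 without DMSO 1, DMSO 3, GS716054 1 or GS716054 3, with adjusted p up to 0.0983, 0.124 and 0.11. In their lists, B-cell surface genes had 1 of 28 called higher and none lower. Stage transcription factors had none of 28 higher and 1 lower, and receptor signalling none of 36 higher and 1 lower. With the block within each time the counts were 5 higher and 4 lower, 4 higher and 5 lower, and 2 higher and 7 lower. That block called 4.18% of all genes tested higher and 3.29% lower. The signalling component gene CD79A (526, 476 and 404 against 690, 620 and 521 CPM) was among the higher ones there, and the lymphoid factor gene IKZF1 (264, 226 and 271 against 206, 184 and 210 CPM) among the lower ones. The summed B-cell markers given above were higher in each treated library than in its DMSO partner, and their part in these results was not tested.

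Among homing genes, CXCR5, the receptor that guides B cells to follicles, went from 8.38, 10 and 7.89 CPM to 17.1, 17.2 and 11.4 CPM (0.79 ± 0.16, edgeR adjusted p = 0.0175). Exons of BCL9L cover 91.1% of those of CXCR5 on the opposite strand, so this value is uncertain. CXCR5 lost its call without DMSO 1, DMSO 3, GS716054 1 or GS716054 2 (adjusted p up to 0.168). It was the only call of 22 homing genes tested with the shared block, against 5 higher and 1 lower with the block within each time. SDC1, the plasma cell surface proteoglycan, rose from 5.17, 2.88 and 8.46 CPM to 13, 9.46 and 15.7 CPM (adjusted p = 0.0198), while HERPUD1, a gene of endoplasmic reticulum protein quality control, fell from 112, 76.6 and 90.6 CPM to 67.8, 65.2 and 60 CPM (adjusted p = 0.0188). SDC1 lost its call without DMSO 1, DMSO 2, GS716054 1 or GS716054 3 (adjusted p up to 0.162), and HERPUD1 without all but DMSO 2 (adjusted p up to 0.2). Of 34 plasma cell and unfolded protein response genes, 1 was higher and 2 were lower, and the list's median was -0.06.

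The mitosis and replication lists held 1 call with the shared block. Of 45 mitosis genes tested, 1 was called lower, CDC25B, the phosphatase that activates CDK1. CDC25B was at 334, 259 and 246 CPM in DMSO and 241, 202 and 191 CPM in treated libraries (-0.40 ± 0.09, edgeR adjusted p = 0.0367). Its call was lost without all but DMSO replicate 2, with adjusted p up to 0.306. The list's median was -0.20, 43 of the 45 values were below 0, and 38 genes were lower in each of the 3 pairs, against 2818 of all 15248 genes tested. With the block within each time 18 were called lower and none higher. Without pair 1, 5 were called lower, and 16 without pair 2 and without pair 3. CCNA2, cyclin A2, is an example at 219, 190 and 272 CPM in DMSO and 187, 148 and 200 CPM in treated libraries. None of 43 replication genes was called with the shared block, 8 (of 43, against 11.5% of all genes) had an unadjusted p under 0.05, and DESeq2 called 0. The median was -0.16, and 11 were called lower with the block within each time, 4 of them without pair 1, 15 without pair 2 and 10 without pair 3. Of 10 MYC network genes tested, 1 was called higher with the shared block and none lower. With the block within each time 3 were higher and 1 was lower. MXD4, a MAX partner that opposes MYC, rose from 58, 64 and 52.3 CPM to 80.1, 98.7 and 82.1 CPM (0.58 ± 0.11, adjusted p = 0.00786), a call lost without DMSO 3 or GS716054 2 (adjusted p up to 0.0757).

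Antigen presentation and interferon genes held 2 calls with the shared block. None of 21 class I genes was called, 9 had an unadjusted p under 0.05, DESeq2 called 1 and the block within each time called 9 lower. HLA-B was the nearest, at 530, 454 and 285 CPM in DMSO and 389, 335 and 194 CPM in treated libraries (-0.48 ± 0.12, edgeR adjusted p = 0.0502). Near-identical sequence among HLA genes makes their single values uncertain. None of 18 class II genes was called with the shared block (4 at an unadjusted p under 0.05, DESeq2 0), and 5 were lower with the block within each time. Without pair 1, 2 genes of each class were called lower with that block, against 7 and 6 without pair 2 and 5 and 3 without pair 3, when 1 class I gene was also called higher. Of 43 interferon response genes 2 were called lower, MX1, an antiviral GTPase, and IFI16, a DNA sensor, and none higher. MX1 fell from 52.6, 49.9 and 41.4 CPM to 31.3, 28.4 and 24.7 CPM (-0.77 ± 0.11, adjusted p = 0.00102), a call lost in the fit of all 36 libraries (adjusted p = 0.817). IFI16 went from 192, 163 and 158 CPM to 137, 135 and 104 CPM, and its adjusted p of 0.032 rose to as much as 0.272 when 1 library other than DMSO 2 was left out. BST2, also an interferon-induced gene, was called higher with the block within each time (89.4, 98.5 and 98.7 against 114, 134 and 126 CPM). That block called 2 of the 43 higher and 6 lower, with 4, 12 and 6 lower without pairs 1, 2 and 3.

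Amino acid response genes rested on pair 1. None of 38 genes of the ATF4 list was called with the shared block (10 at an unadjusted p under 0.05, DESeq2 0), and 12 were lower with the block within each time. Their median was -0.54 in pair 1, -0.06 in pair 2 and -0.08 in pair 3. Without pair 1 the block within each time called 0 of them, without pair 2 it called 18 lower and 1 higher, and without pair 3 it called 16 lower. CHAC1, a glutathione-degrading enzyme gene of this response, shows it at 25.8, 3.6 and 3.82 CPM in DMSO and 5.18, 3.07 and 3.11 CPM in treated libraries. DMSO replicate 1 alone was high.

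Mitochondrially encoded mRNAs held no call with the shared block. All 13 had a log2 fold change above 0 (median 0.36), 8 were higher in each of the 3 pairs, and the medians were 0.47, 0.61 and 0.07 in pairs 1, 2 and 3. None was called with the shared block, 12 had an unadjusted p under 0.05, DESeq2 called 2, and the block within each time called 11 higher (4, 8 and 12 without pairs 1, 2 and 3). MT-CO1, a core subunit of cytochrome oxidase, was at 6309, 4571 and 4068 CPM in DMSO and 9700, 7543 and 4686 CPM in treated libraries. Mitochondrial genes took 2.66%, 2.17% and 1.91% of gene reads in DMSO and 3.77%, 3.24% and 2.15% in treated libraries, and pair 3 differed least. The part of this share in the result was not tested. Nuclear respiratory chain genes had a median of -0.01, with none of 65 called (2 at an unadjusted p under 0.05, DESeq2 0). Cytosolic ribosomal proteins had a median of -0.06, with 0 of 79 called, 0 at an unadjusted p under 0.05 and 0 by DESeq2. Their medians were -0.06, 0.13 and -0.27 in pairs 1, 2 and 3. The block within each time called 0 of them, but up to 22 lower and up to 2 higher when a pair was left out.

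**Figure D3:**
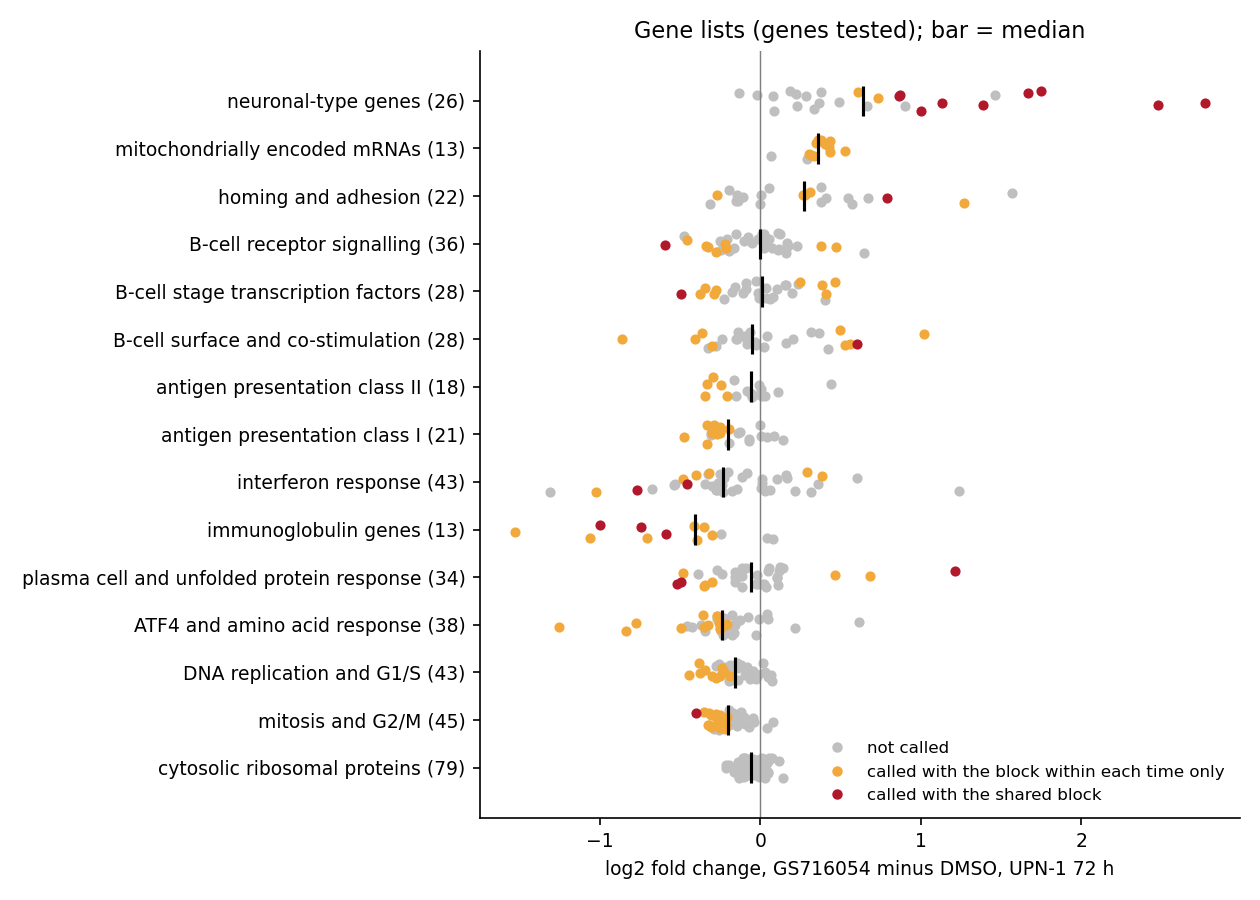
Log2 fold change at 72 h of each tested gene (point) in 15 lists, with the number tested in brackets, a black bar at the list's median, red for genes called with the shared block, orange for genes called only with the block within each time and grey for the rest. Neuronal-type genes reach 2.77 with a median of 0.64, immunoglobulin genes have a median of -0.41, and the cell cycle lists lie close to and mostly below 0.

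The remaining lists held few calls. Of 17 cyclin D, CDK4/6 and inhibitor genes, CDKN1A was called higher and CCND1 lower. Of 20 silencing factors of the H3K9 and HUSH kind, ATF7IP and ZNF274 were lower and none was higher. No gene was called among 19 H3K4 methyltransferase complex genes, 19 other histone demethylases, 33 replication-dependent histones, 46 ribosome biogenesis genes, 29 NF-kappaB genes, 15 BCL2 family genes, 32 lipid synthesis genes, 40 glycolysis and hypoxia genes, 8 germline genes, 8 metal response genes, 26 immediate early factors and 34 lysosome genes. At an unadjusted p under 0.05 these lists held, in that order, 1, 1, 0, 1, 3, 2, 3, 2, 3, 0, 6 and 3 genes, against 11.5% of all genes tested, and DESeq2 called 0 in each except 1 glycolysis, 1 germline and 1 lysosome gene.

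The response at 72 h went in the direction of the smaller response at 24 h. At 24 h, 12 genes (0.0787% of 15248) were called with the shared block, and all 12 were called at 72 h in the same direction. Of the 175 genes raised at 72 h, 167 had a 24 h log2 fold change above 0 (median 0.49), and all 48 lowered genes had one below 0 (median -0.33), against 49.5% above and 50.5% below 0 over all genes tested. The DMSO libraries of the 2 times are separate, but the fit and its block are shared.

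CKB rose by 1.07 at 24 h, from 14.3 ± 0.407 to 30.4 ± 6.03 CPM. ATF7IP fell by 1.43 and ZNF274 by 1.19 at 24 h, which were larger changes than those at 72 h (0.98 and 0.77), but the difference between the times was not called for either (edgeR adjusted p = 1). NIBAN3 stood at 55.6 ± 17.4 and 43.2 ± 13.8 CPM at 24 h, and its difference of -1.01 between the effects had an adjusted p of 0.282 with the shared block and 0.00121 with the block within each time. The test of the difference between the times called 1 gene (0.00656%), TROAP-AS1, by 1.90 ± 0.27 (adjusted p = 0.0332). Its 24 h levels were 5.46 ± 0.843 CPM in DMSO and 5.66 ± 1.38 CPM with GS716054. That call was lost without 8 of the 12 UPN-1 libraries, which were replicates 1 and 3 of DMSO at either time, replicates 2 and 3 of GS716054 at 72 h and replicates 1 and 3 of GS716054 at 24 h (adjusted p up to 0.685 over all alternatives). With the block within each time 7 genes (0.0459%) were called, among them NIBAN3, TROAP-AS1 (adjusted p = 0.00227), CRIP2 (0.00916) and PRPH (0.0463).

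**Figure D4:**
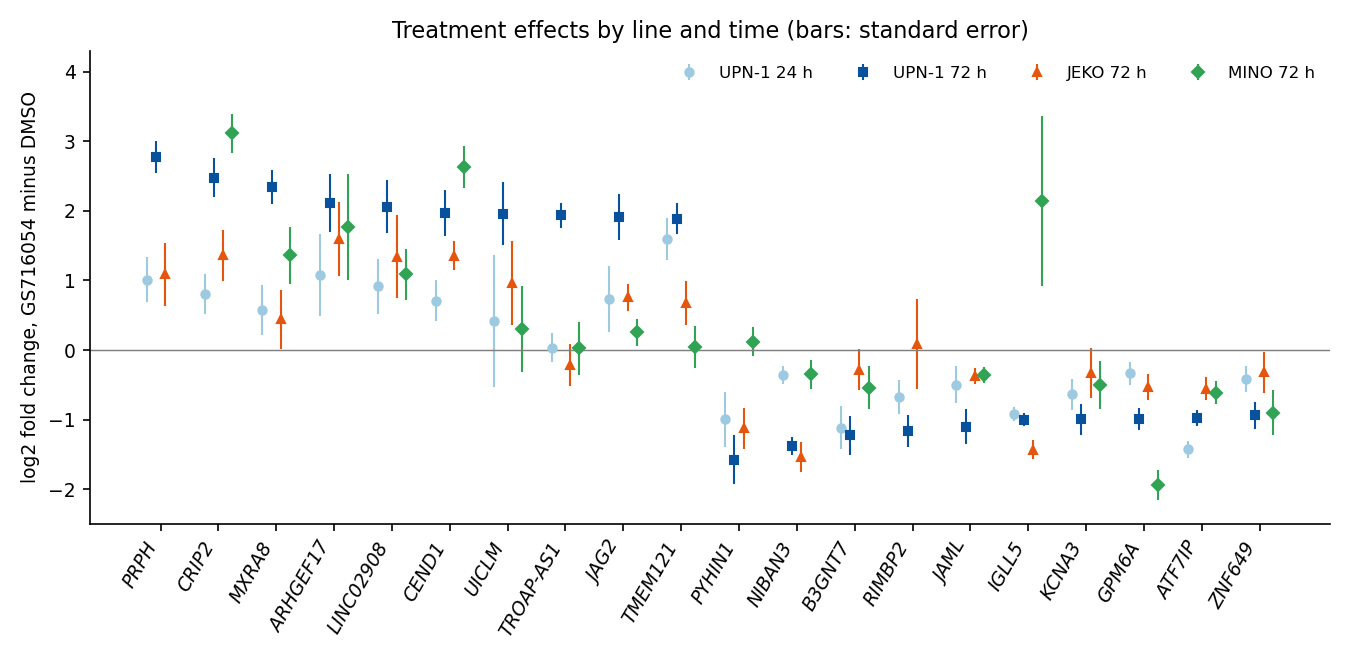
Log2 fold change of GS716054 against DMSO, with bars of 1 standard error, for the 10 most raised and 10 most lowered UPN-1 genes in UPN-1 at 24 h and 72 h and in JEKO and MINO at 72 h. PRPH and RIMBP2 are not drawn for MINO, where they had no reads. CRIP2 is high in UPN-1 (2.48) and MINO (3.11), TROAP-AS1 is high in UPN-1 at 72 h only among the points drawn, and GPM6A is lowest in MINO (-1.94).

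Part of the UPN-1 response was shared with the other lines. In a fit of all 36 libraries JEKO had 123 genes higher (0.684% of 17980) and 92 lower (0.512%) at 72 h, and MINO 1265 higher (7.04%) and 984 lower (5.47%). Of the 175 genes raised in UPN-1, 26 were called higher in JEKO, which is 14.9% of the UPN-1 genes and 21.1% of the JEKO genes. In MINO 64 were higher, 36.6% and 5.06% of the 2 lists, and 6 were lower. Of the 48 lowered genes, 13 were lower in JEKO (27.1% and 14.1%) and 12 in MINO (25% and 1.22%), with 1 higher in MINO. TP53I11 rose in each line in that fit, by 0.77 in UPN-1 (50.7, 58 and 47.4 against 80.7, 98.5 and 89.5 CPM), 0.56 in JEKO and 0.74 in MINO. In the same fit of 36 libraries CEND1 and MXD4 were also called higher in each line. IRF4 was called lower there in JEKO and MINO but not in UPN-1 (adjusted p = 0.113).

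The test of the difference itself separated UPN-1 from MINO much more than from JEKO. Between UPN-1 and JEKO 2 genes (0.0111%) were called, against 50 with a block within each line and time. IGHG2 changed by -3.10 in JEKO (24.4 ± 13 to 2.75 ± 1.03 CPM) and by -1.06 in UPN-1, where it stood at 3.08 ± 0.411 and 1.46 ± 0.127 CPM (difference 2.01 ± 0.31, edgeR adjusted p = 0.00765). STAMBPL1, a deubiquitinase gene, fell from 12.4 ± 2.07 to 6.72 ± 0.738 CPM in UPN-1 and was at 28.9 ± 3.52 and 36.8 ± 3.95 CPM in JEKO (difference -1.25 ± 0.20, adjusted p = 0.00765). IGHG2 lost its call without UPN-1 DMSO 3, GS716054 1 or GS716054 3, and STAMBPL1 without these or UPN-1 DMSO 1, with adjusted p up to 0.755 and 0.109 over all alternatives.

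Between UPN-1 and MINO 382 genes (2.12%) were called. MYC was at 706 ± 91.1 CPM in MINO DMSO cells and 220 ± 27.2 CPM in treated ones, while in UPN-1 it stood at 71.8 ± 2.05 and 87 ± 7.76 CPM (difference 1.94 ± 0.19, edgeR adjusted p = 9.95e-07). ASS1, the arginine synthesis enzyme, fell in MINO from 194 ± 18.1 to 14.4 ± 5.95 CPM and stood at 43 ± 20.2 and 30 ± 9.96 CPM in UPN-1 (difference 3.28 ± 0.62, adjusted p = 0.00377). CBS, a transsulfuration enzyme gene with a near-identical copy in GRCh38 that makes its value uncertain, differed by 3.16 ± 0.46. RNF157, a ubiquitin ligase gene, rose in UPN-1 from 1.4 ± 0.237 to 4.31 ± 0.187 CPM and fell in MINO from 16.1 ± 1.19 to 6.73 ± 2.46 CPM. Its UPN-1 call was lost without all but DMSO replicate 2 (adjusted p up to 0.09), and the difference between the lines was called under each alternative.

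In the other direction, EPSTI1, an interferon-induced gene, rose in MINO from 1.04 ± 0.358 to 19 ± 7.66 CPM and was at 10 ± 4.39 and 9.34 ± 3.43 CPM in UPN-1 (difference -4.17 ± 0.73, edgeR adjusted p = 0.00248). OSBPL10, an oxysterol-binding protein gene, rose there from 1.01 ± 0.605 to 9.41 ± 2.05 CPM and was at 27.5 ± 4.81 and 31.6 ± 6.39 CPM in UPN-1. LINC01694 had no read in the MINO DMSO libraries, so its fitted difference is no bound. The list medians at 72 h also differed in sign between UPN-1 and MINO for interferon genes (-0.23 and 0.67), with 7 of 43 genes called different. For class I antigen presentation they were -0.20 and 0.21, with 2 of 21 genes called different. Other lists also differed in sign, among them B-cell surface genes (-0.05 and 0.42, 5 of 28) and NF-kappaB genes (-0.09 and 0.24, 4 of 29). The ATF4 list held the most genes called different of the lists reported, 8 of 38, all with the higher effect in UPN-1. Its medians were both below 0 (-0.24 and -1.01).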

How the data were processed

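Libraries came from a Qiagen mRNA preparation, per the labels' protocols. The authors deposited raw HTSeq read counts per Ensembl gene for each library, made with HISAT2 2.2.1 and HTSeq 0.13.5 on GRCh38, per the submitters' processing notes. The annotation release, strand setting and dose are not given in the sources used here. Of 58302 gene IDs, 770 were not found in GENCODE v44, which gave names and positions. Reads in no gene made up 43.7 to 45 percent of the UPN-1 72 h libraries and entered no fit.

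Counts were fitted with edgeR 4.0.16 in R 4.3.3 (TMM scaling, filterByExpr with a minimum count of 10 and total of 15, quasi-likelihood test, Benjamini-Hochberg adjustment) over the 12 UPN-1 libraries, with the replicate number as a block. A second fit had the block within each time, and the lines were compared in a fit of 36 libraries with the block within line. At 72 h, deviations of same-numbered treated and DMSO libraries correlated at 0.483, 0.561 and 0.581, at 24 h at 0.169, 0.107 and 0.238. Between 24 h and 72 h, same-numbered libraries correlated at 0.044, 0.011 and 0.15 in DMSO and at 0.166, 0.036 and 0.245 with GS716054. The pairing within a time comes from the labelled replicate numbers and this check. The block shared by both times rests on the numbers alone. The labels call the replicates biological, but name no separate source, so p-values measure the spread between these libraries. CPM values are counts scaled to a common total of gene reads, and floors cover counting error only.

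Named genes were the 10 with the largest change in each direction among called genes of the same sign in every pair whose log2 CPM averaged 1 or more, up to 3 called members per direction with the smallest adjusted p in each list, 11 fixed KDM5 and lymphoma genes, and up to 3 called genes per direction with the largest difference between times or lines. The members and lists were chosen with earlier results of these data known. One further list is not reported here. Alternatives were no block, DESeq2 1.42.0, its size factors, no filter, a minimum count of 50, other sets of libraries and each library left out. The fits were also run on simulated data, in which a replicate number had the same effect at both times. That setting is the assumption of the shared block, so the simulation cannot decide between the blocks.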

Additional observations from a re-analysis of the deposited data

Results flagged for a closer look

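Treatment effects that differed between times or lines by a test of the difference itself (edgeR, Benjamini-Hochberg adjusted p under 0.05) are given here as the UPN-1 72 h log2 fold change minus the other one. Between the times 1 gene passed, TROAP-AS1, with a difference of 1.9. Between UPN-1 and JEKO 2 genes passed, IGHG2 with 2.01 and STAMBPL1 with -1.25.

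Between UPN-1 and MINO 382 genes passed. Among the named genes, UPN-1 had the higher effect for ASS1 (3.28), CBS (3.16), RNF157 (2.9), MYC (1.94), TROAP-AS1 (1.89), TMEM121 (1.84), JAG2 (1.63), SDC1 (1.42) and CDKN1A (0.965). It had the lower effect for EPSTI1 (-4.17), OSBPL10 (-2.93), PYHIN1 (-1.68), MXD4 (-0.814), JAML (-0.756), MCL1 (-0.724), CDC25B (-0.659) and IFI16 (-0.569). LINC01694 had a fitted difference of -5.05, a value that depends on the prior count, since its MINO DMSO libraries were at 0. MCL1, which encodes an anti-apoptotic protein, rose in MINO from 246 ± 13.4 to 436 ± 35.8 CPM (SD, n = 3). PYHIN1 was far more abundant in MINO (46.1 ± 9.16 CPM in DMSO) than in UPN-1 (3.35 ± 0.887 CPM).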

How the results depend on the processing

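The number of genes called at 72 h (223) moved with the model. It was 51 with no replicate block, 1139 with the replicate block within each time, 804 with the replicate block and only the 6 libraries compared, 125 in the fit of 36 libraries and 535 without the low-count filter. It was 285 with DESeq2. Leaving out 1 library gave 96 to 367, and leaving out a pair with the replicate block within each time gave 402, 1636 and 853 for pairs 1, 2 and 3, an alternative chosen after seeing the data. For the difference between the times (1 gene), the count was 0 with no replicate block, 3 with DESeq2, 11 without the filter, 0 at a minimum count of 50, 7 with the replicate block within each time and 0 to 2 without 1 library. For UPN-1 against JEKO (2 genes) it was 1 with no replicate block, 15 with DESeq2, 61 without the filter, 50 with the replicate block within each line and time and 0 to 3 without 1 library. For UPN-1 against MINO (382 genes) it was 140, 649, 731, 1282 and 129 to 546 in that order. Every called gene had the same sign in each of the 3 pairs, so the selection alone made a change of sign under an alternative unlikely. Of the 40 named genes called, 11 kept the call under each alternative, and over 676 alternative values of these genes 137 lost the call and 0 changed sign. CEND1, GPM6A, IGHG3 and STMN3 lost it only with no replicate block (adjusted p = 0.0786, 0.199, 0.149 and 0.126). With 3 libraries a group and 10297650 to 13339593 gene reads in each, changes of genes at a few CPM rest on few reads.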

Other observations

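Gene families outside the lists held further calls. They were put together by symbol after the values were seen, so their counts are a description with no test. Of 12 gamma protocadherin genes tested, 2 were called higher and none lower, and the median log2 fold change was -0.27. Of 9 ephrin and Eph receptor genes tested, 1 was called higher and none lower, with a median of 0.48. Of 13 tested Notch ligand, receptor, HES and HEY genes, 3 were called higher and none lower, against 1.15% and 0.315% of all genes tested. HEY2, at 17, 18.5 and 13 CPM in DMSO and 11.9, 11.3 and 11.9 CPM in treated libraries, was called lower only with the block within each time (adjusted p = 0.0363). Besides JAG2 these were the receptor gene NOTCH3, at 1.1, 7.48 and 1.55 CPM in DMSO and 7.62, 12.3 and 9.73 CPM in treated libraries (1.77, edgeR adjusted p = 0.0361), and HES1, a repressor that Notch switches on. HES1 went from 2.59, 2.61 and 3.25 CPM to 5.58, 4.41 and 7.94 CPM (1.07, adjusted p = 0.0277). For NOTCH3 DMSO replicate 2 came within a small margin of the lowest treated library, and neither gene's groups overlapped. Semaphorins, plexins and neuropilins are known as axon guidance cues and receptors. Of 19 tested, 4 were called higher and none lower, against 1.15% and 0.315% of all genes tested. The 4 were SEMA6B (2.53), SEMA3F (1.24), PLXNA1 (0.72) and PLXNB1 (0.60).

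CKB was not the only creatine gene among the calls. Of 4 tested, 3 were called higher and none lower, against 1.15% and 0.315% of all genes tested. GAMT, which makes creatine, rose from 30.1, 30 and 34.6 CPM to 58.4, 40.3 and 53.1 CPM (0.68, edgeR adjusted p = 0.00984). The muscle-type kinase gene CKM rose from 1.1, 1.62 and 1.22 CPM to 4.01, 3.625 and 3.11 CPM (1.44, adjusted p = 0.0403). GATM was not called (-0.06, adjusted p = 0.911). Of 5 tested ID and inhibitory SMAD genes, 2 were called higher and none lower, again against 1.15% and 0.315% of all genes tested. ID1, an inhibitor of basic helix-loop-helix factors, went from 10.3, 23.2 and 16.5 CPM to 24.1, 35.2 and 34.4 CPM (0.94, adjusted p = 0.0032). The inhibitory SMAD gene SMAD6 went from 8.23, 9.37 and 6.99 CPM to 14.9, 15.6 and 17.8 CPM (0.97, adjusted p = 0.0103). ID2, ID3 and SMAD7 were not called with the shared block (edgeR adjusted p = 0.302, 0.362 and 0.941). For GAMT, CKM, ID1 and SMAD6 no treated library overlapped a DMSO library, as for 8.88% of all genes tested.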
